A study of Caenorhabditis elegans with 24 samples.

Results

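The inducible heat shock genes of Caenorhabditis elegans and hsf-1 were described in whole young adults of 4 genotypes. The members were listed by gene name: hsp-70, F44E5.4 and F44E5.5 of the HSP70 family, hsp-16.1, hsp-16.11, hsp-16.2, hsp-16.41, hsp-16.48 and hsp-16.49 of the small heat shock proteins, and hsf-1. They are 10 of the 46778 genes in the count table, and all 10 were among the 14865 genes that passed the filter on low counts. They were selected on measured values, namely earlier results for the fold changes of these genes in unc-1(vlt10) against 40Q. That comparison, and those that share libraries with it, are therefore given as descriptions: no member's p-value is printed for them, and nothing is read from their counts of members below a threshold.

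HSF-1 is the transcription factor that binds heat shock elements upstream of chaperone genes when unfolded proteins accumulate. The HSP70 proteins refold clients with ATP, and the small heat shock proteins, which carry an alpha-crystallin domain, hold unfolded proteins so that they do not aggregate. In C. elegans the hsp-16 genes and hsp-70 are weakly expressed in unstressed animals and rise strongly on heat shock, and hsp-16.2 is a common reporter of this response.

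The study sequenced RNA from pooled animals, with 6 biological replicates for each genotype. All animals were grown at 20 °C and carried the integrated transgene rmIs133[unc-54p::40Q::YFP], which drives 40 glutamine repeats fused to a yellow fluorescent protein from a body wall muscle promoter. The groups were unc-1(vlt10), a nonsense allele of the stomatin homologue unc-1 recovered after chemical mutagenesis; double mutants with unc-1(vlt10) and nhr-1(vlt16); nhr-1(vlt16), a nonsense allele of a nuclear hormone receptor gene made by genome editing; and 40Q, which carries the transgene alone. Each genotype is 1 strain, no group lacked the transgene, and no sample was heat shocked. Library names begin with A in 40Q and with R in the other genotypes, and what the letters stand for is not given. Any difference between A and R libraries cannot be told apart from genotype in comparisons with 40Q.

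Reads counted on genes totalled 19098458 to 30467364 per library, with a median of 27525192 in double mutants and medians of 21474733 to 21993626 in the other genotypes. The transcripts of the mutated genes followed the labels: the log2 fold change of unc-1 was -2.88 in unc-1(vlt10) against 40Q and -2.81 in double mutants against nhr-1(vlt16), and that of nhr-1 was -0.92 in nhr-1(vlt16) and -0.97 in double mutants against 40Q. Markers of muscle, intestine, neurons, hypodermis, germ line, oocytes and sperm were detected in every library. In such bulk samples, fewer cells of a type and less RNA per cell cannot be told apart. Replicate 4 of unc-1(vlt10) stood apart for hsp-16.48, and results that rest on it are given with and without it.

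Most of the inducible genes lie as divergent pairs on WBcel235, and their reads have to be read in that light. On chromosome V, hsp-16.1 (9087293 to 9087782, minus strand) and hsp-16.48 (9088131 to 9088617, plus strand) lie back to back with 348 bases between them. Their near-identical copies hsp-16.49 (9089280 to 9089766, minus strand) and hsp-16.11 (9090077 to 9090604, plus strand) form the mirrored pair beside them, with 310 bases between. A further divergent pair on V, hsp-16.2 (1804334 to 1804957, minus strand) and hsp-16.41 (1805178 to 1805875, plus strand), is 220 bases apart. F44E5.4 (11757107 to 11759311, minus strand) and F44E5.5 (11759662 to 11761861, plus strand) are near-identical divergent neighbours on chromosome II, with 350 bases between. On chromosome I lie hsp-70 (9320325 to 9322519, minus strand) and hsf-1 (11953507 to 11963085, minus strand). How reads that match both copies were counted is not given in the sources used here. Each copy's own level is therefore uncertain, and the sum of each pair is given too, which holds only the reads that were counted. From start to end, hsp-70 overlaps uggt-2 on the plus strand. Whether their exons overlap was not checked, and without a stated strand setting some of their reads may not be told apart. The log2 fold changes of uggt-2 were -0.13 in unc-1(vlt10) against 40Q and 0.26 in double mutants against nhr-1(vlt16).

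Across the 9 inducible genes, 8 had the same order of mean level, with unc-1(vlt10) lowest, then double mutants, then nhr-1(vlt16), and 40Q highest. The exception was hsp-16.48, whose mean in unc-1(vlt10) rested on 1 library. The ends of this order are the 2 genotypes compared when the members were chosen, so it is a description and no test. The share of all genes in the same order was not counted, and near-identical copies among these genes may share reads. The summed level of the 9 genes, in CPM (reads scaled to library size, after TMM normalization), was 35.4 ± 9.84 in unc-1(vlt10), 76.7 ± 8.41 in double mutants, 102 ± 11 in nhr-1(vlt16) and 122.8 ± 11.42 in 40Q (SD, n = 6 each). Without hsp-16.48 the sum in unc-1(vlt10) was 31.6 ± 2.44. With all 9 genes, the highest unc-1(vlt10) library, at 55.2 CPM, lay below the lowest double mutant library, at 67.4 CPM. Without hsp-16.48 these values were 35.6 and 66.7 CPM.

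**Figure D1:**
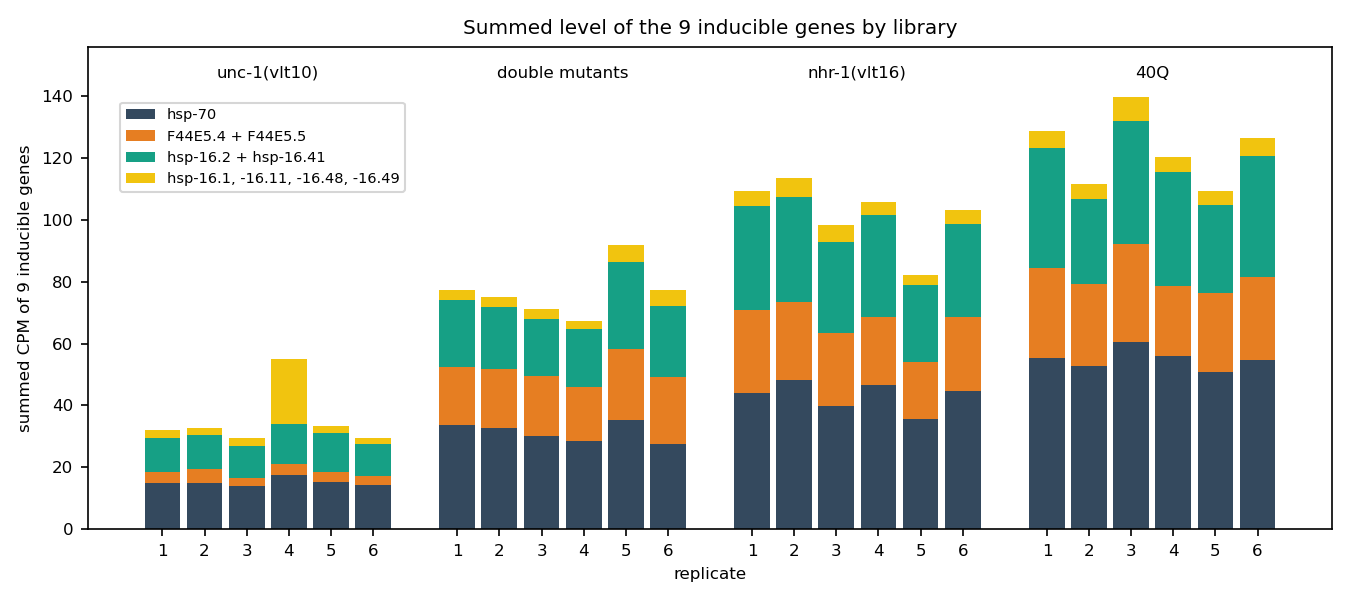
Stacked bars give, for each library, the summed CPM of the 9 inducible genes, split into hsp-70, the F44E5 pair, the hsp-16.2 pair and the 4 genes of the hsp-16.1 and hsp-16.48 cluster. The unc-1(vlt10) libraries lie between 29.4 and 55.2 CPM, the highest through the cluster in replicate 4, and the 40Q libraries between 109 and 140 CPM.

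hsp-70, the heat-inducible HSP70, took up the largest share of the inducible genes' reads in each genotype. Its deposited FPKM (fragments scaled to transcript length and library size) was 6.71 at the lowest, 7.37 at the median and 8.58 at the highest of the 6 unc-1(vlt10) libraries, and 24, 26 and 28.3 in 40Q. The ranges of unc-1(vlt10) and 40Q did not overlap, and the log2 fold change was -1.86 (SE 0.0709). In double mutants the lowest, median and highest FPKM were 13.5, 15 and 17.8, against 16.8, 21.4 and 23.2 in nhr-1(vlt16). On the CPM scale every double mutant library was below every nhr-1(vlt16) library, although the FPKM ranges overlap. This was the largest change, relative to its error, of any member in double mutants against nhr-1(vlt16): hsp-70 fell by 0.46 on the log2 scale (SE 0.0654, edgeR adjusted p = 6.47e-06), or by 27.4% in mean CPM. hsp-70 was also lower in nhr-1(vlt16) than in 40Q, with a log2 fold change of -0.35 (SE 0.0644). There hsp-70 was the 1 member of 10 with all nhr-1(vlt16) libraries below all of 40Q, beside 10.2% of all genes tested.

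F44E5.4 and F44E5.5 encode HSP70 proteins that are near-identical to each other, and they showed the largest difference of the members between unc-1(vlt10) and 40Q. F44E5.4 had 0.599, 0.775 and 1.14 FPKM at the lowest, median and highest of the unc-1(vlt10) libraries, and 4.56, 6.25 and 7.80 FPKM in 40Q. For F44E5.5 the values were 0.618, 0.85 and 1.14 FPKM in unc-1(vlt10), and 5.77, 6.44 and 7.01 FPKM in 40Q. Neither gene overlapped between the genotypes, and the reads in unc-1(vlt10) were 26 to 50 per library for F44E5.4 and 27 to 49 for F44E5.5. The log2 fold changes were -3.03 (SE 0.145) for F44E5.4 and -2.99 (SE 0.114) for F44E5.5.

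In the nhr-1(vlt16) background the F44E5 genes overlapped between genotypes. F44E5.4 had 3.70, 4.39 and 5.76 FPKM in double mutants, against 3.94, 5.38 and 6.27 FPKM in nhr-1(vlt16), and only 2 double mutant libraries lay below all of nhr-1(vlt16) on the CPM scale. F44E5.5 had 4.81, 5.02 and 5.68 FPKM in double mutants, against 4.74, 5.85 and 6.77 FPKM in nhr-1(vlt16). Neither passed the test, with log2 fold changes of -0.27 (SE 0.114, edgeR adjusted p = 0.102) for F44E5.4 and -0.20 (SE 0.0885, adjusted p = 0.121) for F44E5.5. Summed, the pair had a log2 fold change of -0.23 (SE 0.0875, adjusted p = 0.0629). F44E5.4, taken singly, passed the test without nhr-1(vlt16) replicate 5 (adjusted p = 0.0426) or without double mutant replicate 5 (adjusted p = 0.0420), and its adjusted p was up to 0.376 over all edgeR, DESeq2 and limma alternatives. In double mutants against unc-1(vlt10), F44E5.4 was 2.51 (SE 0.147) and F44E5.5 2.63 (SE 0.114) higher on the log2 scale, again with no overlap. In that comparison 5 of the 10 members had all double mutant libraries above all of unc-1(vlt10), beside 1821 of the 14865 genes tested.

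hsp-16.2 and hsp-16.41, divergent small heat shock genes, had lower levels in unc-1(vlt10) as well. hsp-16.2 had 8.21, 9.67 and 10.4 FPKM at the lowest, median and highest of the unc-1(vlt10) libraries, against 24.6, 33.7 and 35.7 FPKM in 40Q, with a log2 fold change of -1.78 (SE 0.108). hsp-16.41 had 6.91, 9.0 and 11.8 FPKM in unc-1(vlt10), against 17.4, 26.6 and 28.9 FPKM in 40Q, with a log2 fold change of -1.46 (SE 0.129). Neither gene overlapped between these 2 genotypes.

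Both genes of this pair fell in double mutants against nhr-1(vlt16). hsp-16.2 had 16.07, 17.6 and 24.3 FPKM in double mutants, against 19.4, 27.8 and 30.5 FPKM in nhr-1(vlt16), and fell by 0.53 on the log2 scale (SE 0.0991, edgeR adjusted p = 0.000280). hsp-16.41 had 13.4, 16.38 and 23.4 FPKM in double mutants, against 19.5, 24.4 and 27.4 FPKM in nhr-1(vlt16), and fell by 0.48 (SE 0.119, adjusted p = 0.00435). On the CPM scale 5 of 6 double mutant libraries lay below all of nhr-1(vlt16) for each gene, and the exception was replicate 5 of the double mutants. Summed, the pair fell by 0.51 (SE 0.0979, adjusted p = 0.000401). In nhr-1(vlt16) against 40Q the log2 fold changes were -0.28 (SE 0.0971) for hsp-16.2 and -0.11 (SE 0.118) for hsp-16.41, and the libraries overlapped.

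**Figure D2:**
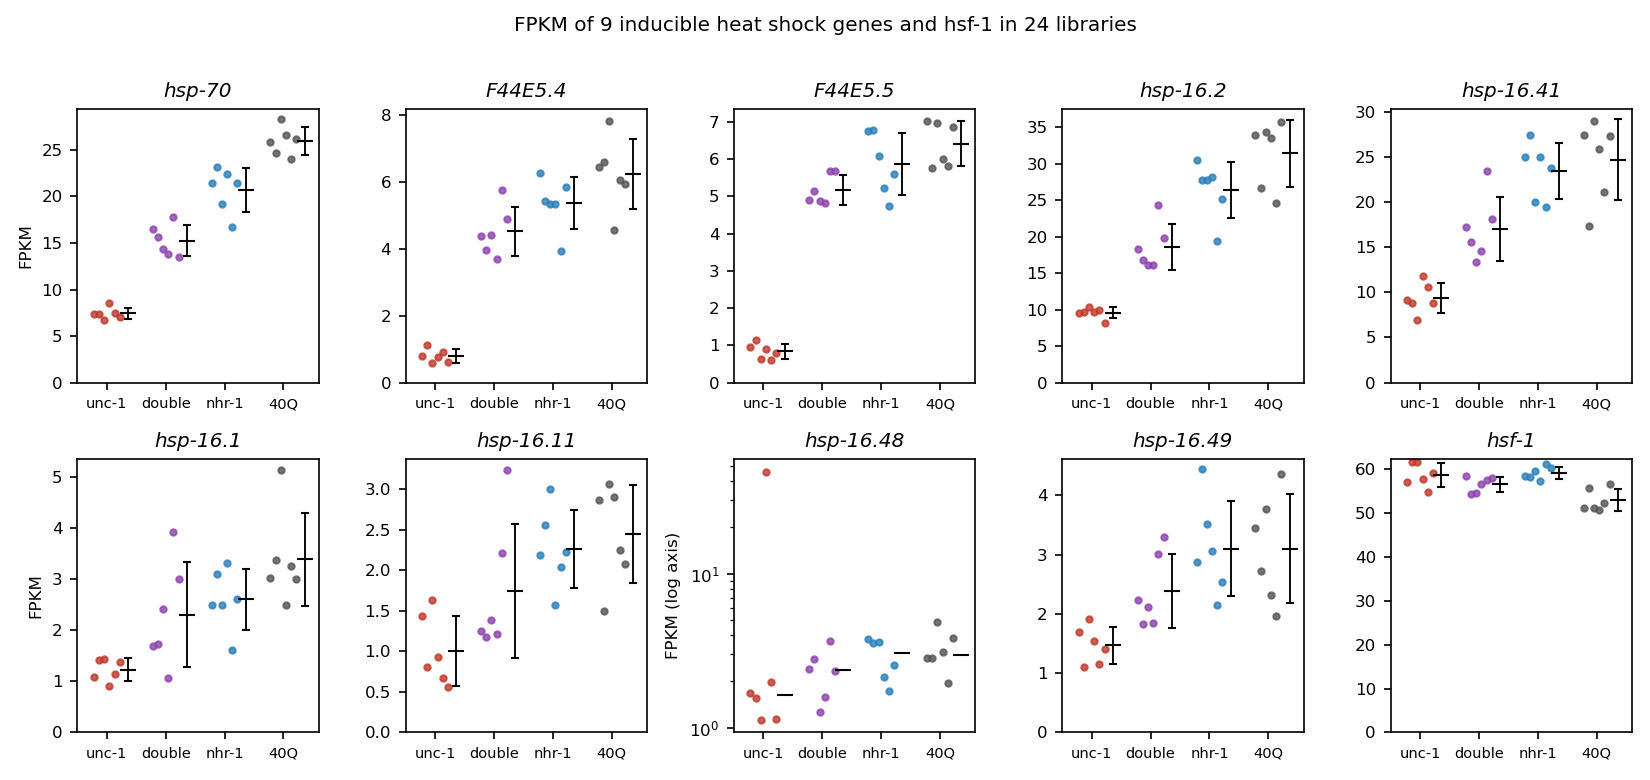
FPKM of each member in the 24 libraries, with unc-1(vlt10), double mutants, nhr-1(vlt16) and 40Q from left to right, points for replicates and a bar for the mean ± SD over 6 libraries (hsp-16.48: log axis and median only). hsp-70, F44E5.4, F44E5.5 and hsp-16.2 do not overlap between unc-1(vlt10) and 40Q, and 1 unc-1(vlt10) library stands at 46.0 FPKM for hsp-16.48.

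The 4 genes of the hsp-16.1 and hsp-16.48 cluster, small heat shock genes of the same family, were counted with few reads, so their values carry more counting error. hsp-16.1 had 9 to 16 reads in unc-1(vlt10) libraries and 23 to 51 in 40Q. hsp-16.11 had 7 to 16 reads in unc-1(vlt10) and 14 to 33 in 40Q. hsp-16.49 had 10 to 17 reads in unc-1(vlt10) and 19 to 40 in 40Q. hsp-16.1 and hsp-16.49 did not overlap between these genotypes on the CPM scale, while 5 of 6 unc-1(vlt10) libraries lay below all of 40Q for hsp-16.11. Their log2 fold changes were -1.51 (SE 0.255) for hsp-16.1, -1.37 (SE 0.281) for hsp-16.11 and -1.14 (SE 0.225) for hsp-16.49. Over these 3 genes and the 4 genotypes, the replicate SD was 0.611 to 2.30 times that of counting error alone, with a median of 1.35, lowest for hsp-16.1 in unc-1(vlt10) and highest for hsp-16.1 in double mutants.

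In double mutants against nhr-1(vlt16) none of these genes passed the test. hsp-16.1 had 13 to 49 reads in double mutants and 16 to 33 in nhr-1(vlt16), with a log2 fold change of -0.20 (SE 0.232, edgeR adjusted p = 0.602). The log2 fold changes were -0.40 (SE 0.25, adjusted p = 0.285) for hsp-16.11 and -0.40 (SE 0.202, adjusted p = 0.176) for hsp-16.49. The libraries overlapped for all 3 genes. The sum of hsp-16.1 and hsp-16.11 had a log2 fold change of -0.29 (SE 0.195, adjusted p = 0.319).

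hsp-16.48 differed from its copy in 1 library. In unc-1(vlt10) replicate 4 it had 449 reads and 19.6 CPM, against 0.483 to 0.854 CPM in the other unc-1(vlt10) libraries. hsp-16.49 had 15 reads in the same library. Within 10000 bases on each side, hsp-16.1, hsp-16.11, hsp-16.49, F21C10.9, F21C10.10 and T27E4.1 all had CPM values in replicate 4 below the highest of the other unc-1(vlt10) libraries. The log2 fold change of hsp-16.48 in unc-1(vlt10) against 40Q was 1.41 (SE 0.638) with this library and -1.19 (SE 0.275) without it, so its direction rests on replicate 4. Between double mutants and unc-1(vlt10) the value was -1.92 (SE 0.643) with the library and 0.66 (SE 0.279) without it. The library also widened the error in double mutants against nhr-1(vlt16), where the log2 fold change was -0.31 with an SE of 0.736 (edgeR adjusted p = 0.820), and with an SE of 0.238 without it (log2 fold change -0.31, adjusted p = 0.406). The sum of hsp-16.48 and hsp-16.49 had a log2 fold change of -0.36 there (SE 0.543, adjusted p = 0.703), and of -0.35 without the library (SE 0.185, adjusted p = 0.194).

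**Figure D3:**
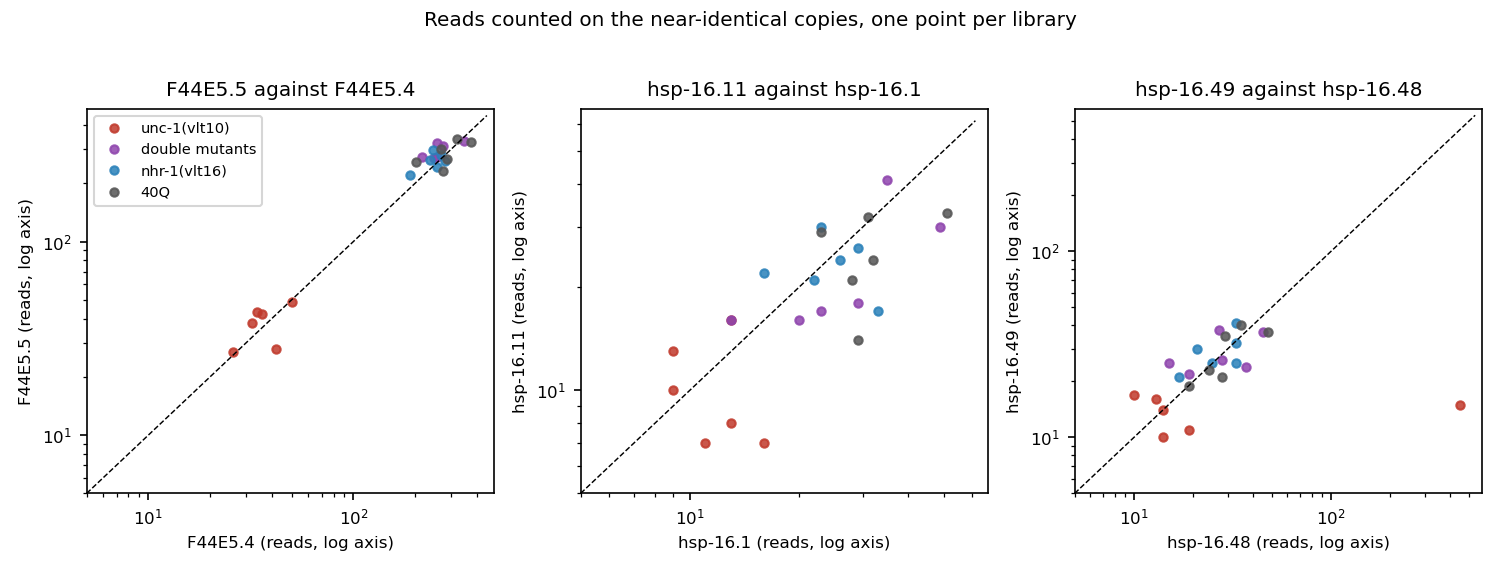
Reads of F44E5.5, hsp-16.11 and hsp-16.49 on the y axis against those of their copies F44E5.4, hsp-16.1 and hsp-16.48 on the x axis, with a point per library, log axes and a dashed line of equality. The F44E5 points of unc-1(vlt10) lie apart from all others, and in the hsp-16.48 panel 1 unc-1(vlt10) library stands far to the right at 449 reads.

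The split of reads between copies was compared as a ratio in each library. The median ratio of F44E5.5 to F44E5.4 reads was 1.10 in unc-1(vlt10), 1.11 in double mutants, 1.08 in nhr-1(vlt16) and 0.997 in 40Q. The median ratio of hsp-16.49 to hsp-16.48 reads was between 0.857 in unc-1(vlt10) and 1.12 in nhr-1(vlt16), and in unc-1(vlt10) replicate 4 it was 0.0334. The hsp-16.11 to hsp-16.1 pair was below 1 in each genotype, with a median ratio of 0.874 in unc-1(vlt10), 0.77 in double mutants, 0.939 in nhr-1(vlt16) and 0.75 in 40Q, and single libraries between 0.438 and 1.44. For the divergent pair on V, the median ratio of hsp-16.41 to hsp-16.2 was 1.10 in unc-1(vlt10), 0.992 in double mutants, 0.991 in nhr-1(vlt16) and 0.853 in 40Q. These ratios are of reads, not per length.

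hsf-1, which encodes the transcription factor itself, differed little between genotypes. Its lowest, median and highest FPKM were 54.8, 58.5 and 61.7 in unc-1(vlt10), against 50.7, 51.7 and 56.5 in 40Q, with a log2 fold change of 0.09 (SE 0.0330) and overlapping libraries. In double mutants they were 54.4, 57.0 and 58.3, against 57.3, 58.9 and 61.1 in nhr-1(vlt16). On the CPM scale all 6 double mutant libraries lay below all of nhr-1(vlt16), with a log2 fold change of -0.09 (SE 0.0326) that did not pass the test (edgeR adjusted p = 0.0652). With DESeq2 it did (adjusted p = 0.0334), and over all alternatives the adjusted p ran up to 0.271. In nhr-1(vlt16) against 40Q, hsf-1 was 0.13 (SE 0.0330) higher on the log2 scale, and it was the 1 member with all nhr-1(vlt16) libraries above all of 40Q, beside 7.88% of all genes. Its mean FPKM in 40Q, 52.9, was above that of hsp-16.2, the highest of the inducible genes per length, at 31.4.

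Per length, the order of the inducible genes was not the same in unc-1(vlt10) and 40Q. In unc-1(vlt10), leaving aside hsp-16.48, the highest mean FPKM values were 9.58 ± 0.743 for hsp-16.2 and 9.35 ± 1.67 for hsp-16.41, within their spread of each other, and then 7.43 ± 0.634 for hsp-70 (SD, n = 6 each). F44E5.4 (0.80 ± 0.20) and F44E5.5 (0.845 ± 0.202) were lowest there, below the cluster genes hsp-16.11 (1.00 ± 0.433), hsp-16.1 (1.23 ± 0.22) and hsp-16.49 (1.47 ± 0.312), although the spread of hsp-16.11 reached theirs. In 40Q the means were 31.4 ± 4.62 for hsp-16.2, 25.9 ± 1.49 for hsp-70 and 24.7 ± 4.46 for hsp-16.41, and those of hsp-70 and hsp-16.41 differed by less than their spread. F44E5.5 (6.41 ± 0.606) and F44E5.4 (6.23 ± 1.05) followed, also within their spread, above the 4 cluster genes with means of 2.44 to 3.38. The counting of reads that match both copies is not given, so the rank of the F44E5 and cluster genes among the others is uncertain.

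The F44E5 pair took a smaller share of the summed CPM of the inducible genes in unc-1(vlt10) than in the other genotypes. It made up 6.18 to 14.1% (median 9.60%) in unc-1(vlt10), 24.5 to 27.9% (median 25.8%) in double mutants, 20.8 to 24.5% (median 22.9%) in nhr-1(vlt16) and 18.6 to 23.7% (median 22.6%) in 40Q. The share of hsp-70 had a median of 46.2% in unc-1(vlt10), 42.3% in double mutants, 42.8% in nhr-1(vlt16) and 45% in 40Q. The lowest hsp-70 share, 31.8%, and the highest share of the cluster, 38.2%, were both in unc-1(vlt10) replicate 4, as was the lowest F44E5 share. Without that library, a choice made after the data were seen, the shares in unc-1(vlt10) were 8.65 to 14.1% for the F44E5 pair, 45.6 to 48.6% for hsp-70 and 6.42 to 9.14% for the cluster. Reads that match both copies may be missing from the F44E5 and cluster shares, since their counting is not given.

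In counts of genes called at an edgeR adjusted p below 0.05 and a fold change above 2, 8 of the 10 members were called in unc-1(vlt10) against 40Q, all lower, beside 5.95% of all genes tested in either direction and 3.26% lower. That comparison was known when the members were chosen, and nothing is read from the count. The remaining members were hsp-16.48 and hsf-1, and the count was 9 without unc-1(vlt10) replicate 4. For 7 members all unc-1(vlt10) libraries lay below all of 40Q, beside 13.3% of all genes. In double mutants against nhr-1(vlt16), which shares no library with it, 0 of 10 members were called, beside 0.888% of all genes. At an adjusted p below 0.05 alone, 3 of 10 passed, hsp-70, hsp-16.2 and hsp-16.41, all lower, beside 9.54% of all genes lower and 19% in either direction. At an unadjusted p below 0.05 the count was 6 of 10, beside 31.8% of all genes. hsp-70 and hsf-1 were the 2 members with all double mutant libraries below all of nhr-1(vlt16), beside 4.64% of all genes. All 10 log2 fold changes were below 0, with a median of -0.35, against a median of 0.0056 over all genes. By DESeq2, 0 members were called as well, and 4 of the 9 members with an adjusted p passed it.

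**Figure D4:**
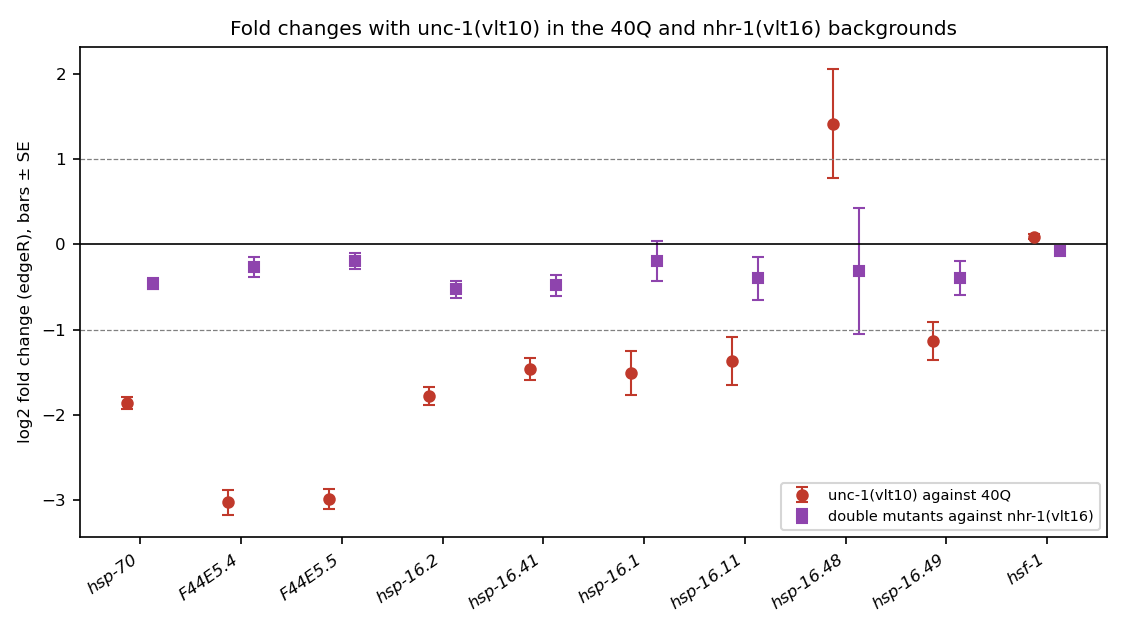
Log2 fold change of each member with its SE from the edgeR fit of 24 libraries, for unc-1(vlt10) against 40Q (circles) and double mutants against nhr-1(vlt16) (squares), with dashed lines at a fold change of 2. F44E5.4 stands at -3.03 and -0.27 in these comparisons, and hsp-16.2 at -1.78 and -0.53.

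Side by side, for the 8 inducible genes other than hsp-16.48 the log2 fold change that went with unc-1(vlt10) was below 0 in both backgrounds and further from 0 in the 40Q background. It was -1.86 in the 40Q background and -0.46 in the nhr-1(vlt16) background for hsp-70, -2.99 and -0.20 for F44E5.5, and -1.46 and -0.48 for hsp-16.41. Whether the effects differ between backgrounds was not tested, since such a test holds the comparison behind the choice of genes. The comparison in the 40Q background also sets R libraries against A libraries, while the other holds R libraries alone.

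Further comparisons share the 40Q or unc-1(vlt10) libraries with the one behind the choice. In nhr-1(vlt16) against 40Q, 0 of 10 members were called by edgeR or DESeq2, beside 2.7% of all genes by edgeR. There 4 had an unadjusted p below 0.05, a smaller share than the 49.8% of all genes, and the median log2 fold change was -0.18. In double mutants against 40Q, 0 of 10 were called by either tool, beside 2.02% of all genes by edgeR, 8 had an unadjusted p below 0.05, beside 41.8%, and the median was -0.53. The 40Q libraries in both comparisons are those behind the choice of members, so these counts are no test of them. For 3 members, hsp-70, hsp-16.2 and F44E5.5, all double mutant libraries lay below all of 40Q, beside 6.63% of all genes. There hsp-70 was -0.81 (SE 0.0647), hsp-16.2 -0.81 (SE 0.0980), hsp-16.41 -0.59 (SE 0.119) and F44E5.4 -0.52 (SE 0.113) on the log2 scale. In double mutants against unc-1(vlt10), 4 of 10 were called, beside 6% of all genes. Of these, hsp-70 (1.05, SE 0.0718), F44E5.4 and F44E5.5 were higher, beside 3.59% of all genes, and hsp-16.48 was lower, beside 2.41%. Below the limit on fold change, hsp-16.1, hsp-16.11, hsp-16.2, hsp-16.41 and hsp-16.49 were higher too, from 0.71 for hsp-16.49 to 0.97 for hsp-16.2. Without unc-1(vlt10) replicate 4, 3 members were called. Some libraries were the lowest or highest of their genotype for several of the 8 inducible genes other than hsp-16.48. Replicate 5 was the lowest of nhr-1(vlt16) for 6, replicate 5 of the double mutants was the highest for 5 and replicate 4 of the double mutants the lowest for 5, and replicate 3 of 40Q was the highest for 5. This did not hold in unc-1(vlt10), where replicate 3 was the highest for 4 genes and the lowest for 3.

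Other heat shock and stress genes were set beside the members. In double mutants against nhr-1(vlt16), 0.888% of all genes were called, and 9.47% were higher and 9.54% lower at an edgeR adjusted p below 0.05. In unc-1(vlt10) against 40Q, 5.95% of all genes were called. Of 9 other small heat shock genes tested, 0 were called in double mutants against nhr-1(vlt16), with 3 higher and 2 lower at an edgeR adjusted p below 0.05. In unc-1(vlt10) against 40Q, 3 were higher and 4 lower at this adjusted p, beside 25.1% and 22.6% of all genes. The highest was hsp-12.6, at 0.78. In the same comparison 1 was called: hsp-17, another small heat shock gene, at -1.06. It also fell by 0.37 in double mutants against nhr-1(vlt16) at an adjusted p below 0.05. Of 19 constitutive cytosolic chaperones, which include the HSP70 hsp-1, the HSP90 daf-21 and the 8 subunits of the CCT chaperonin, 0 were called and 7 were lower at an adjusted p below 0.05 in double mutants against nhr-1(vlt16), with fold changes between -0.14 and 0.03 on the log2 scale over the list. In unc-1(vlt10) against 40Q the BAG-domain gene unc-23 alone was called, at -1.44, and its value in double mutants against nhr-1(vlt16) was -0.08. The median log2 fold change of the list was -0.03 in unc-1(vlt10) against 40Q and -0.07 in double mutants against nhr-1(vlt16).

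Of 9 regulators of HSF-1 and of the heat shock response, among them its binding partner hsb-1, 0 passed an edgeR adjusted p of 0.05 in double mutants against nhr-1(vlt16), and 0 had an unadjusted p below 0.05. Of all genes, 19% passed the adjusted and 31.8% the unadjusted threshold there. In unc-1(vlt10) against 40Q, pqm-1, which encodes a zinc finger transcription factor, was called at -1.08, and hsb-1 was at 0.05. At an adjusted p below 0.05 alone, 1 regulator was lower, pqm-1, and 1 higher, hsf-2 at 0.63, beside 22.6% and 25.1% of all genes. Of 12 reporters of other stress responses, 0 were called in double mutants against nhr-1(vlt16). At an adjusted p below 0.05, 3 were higher and 2 lower, beside 9.47% and 9.54% of all genes in that comparison. There the endoplasmic reticulum chaperone gene hsp-4 was at -0.03 and the mitochondrial chaperone gene hsp-6 at 0.06. The metallothionein gene mtl-1 was called higher in unc-1(vlt10) against 40Q, at 1.18, and was at -0.49 in double mutants against nhr-1(vlt16).

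Markers of other tissues moved with the genotypes as well. The 4 sperm markers gsp-3, gsp-4, smz-1 and spe-11 all rose in double mutants against nhr-1(vlt16) at an edgeR adjusted p below 0.05, with a median log2 fold change of 0.60 and a summed level of 16 to 20.5 CPM in double mutants and 11 to 13.5 CPM in nhr-1(vlt16). The 4 oocyte markers all fell there, with a median of -0.14 and sums of 3634 to 4066 CPM in double mutants and 4090 to 4644 CPM in nhr-1(vlt16). At this adjusted p, 9.47% of all genes were higher and 9.54% lower in double mutants against nhr-1(vlt16). The sums of the other lists overlapped between these genotypes. In unc-1(vlt10) against 40Q the summed muscle markers were 2815 to 3117 CPM in unc-1(vlt10) and 3575 to 4172 CPM in 40Q. Of the 4 muscle markers, 3 were lower at an adjusted p below 0.05, with the myosin heavy chain gene unc-54 furthest at -0.50. The myosin gene myo-3 was higher, at 0.13. At this adjusted p, 22.6% of all genes were lower and 25.1% higher in the same comparison. The summed intestine markers were 23394 to 26519 CPM in unc-1(vlt10) and 31490 to 34499 CPM in 40Q, with 4 of 5 lower. The summed hypodermis and cuticle markers were 1103 to 1168 CPM in unc-1(vlt10) and 1477 to 1775 CPM in 40Q, with the collagen genes col-19 at -0.50 and dpy-7 at 0.70. The summed neuron markers were 347.3 to 366.3 CPM in unc-1(vlt10) and 314.6 to 346.8 CPM in 40Q, although 2 of the 4 were lower and 1 higher at an adjusted p below 0.05. The sums of the germ line, oocyte and sperm markers overlapped there. No marker was at 0 in any library, and the part of these markers and of the greater depth of the double mutants in the members' values was not tested.

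Across the 24 libraries, each inducible gene was compared with the sum of the other inducible genes on the log2 CPM scale. The libraries share genotypes, so these correlations mostly follow the genotype means. Pearson's r was 0.95 for hsp-70, 0.95 for hsp-16.2, 0.96 for hsp-16.41, 0.93 for F44E5.4 and 0.92 for F44E5.5, between 0.77 and 0.83 for hsp-16.1, hsp-16.11 and hsp-16.49, and 0.19 for hsp-16.48. After the genotype means were taken out, r was 0.69 for hsp-70, 0.68 for hsp-16.41, 0.58 for hsp-16.48, 0.47 for hsp-16.2, 0.39 for F44E5.5, 0.37 for hsp-16.49, 0.31 for F44E5.4, 0.18 for hsp-16.1 and 0.15 for hsp-16.11. Several of these values rest on unc-1(vlt10) replicate 4. Over the 23 other libraries r was 0.79 for hsp-16.48 and 0.77 to 0.98 for the other 8 genes, and with the genotype means taken out it was 0.79 for hsp-16.48, 0.76 for hsp-16.2, 0.74 for hsp-16.41, 0.67 for hsp-70, 0.60 for hsp-16.1 and between 0.23 and 0.56 for the remaining 4. For hsf-1 it was -0.29 across the libraries and -0.34 within genotypes, and -0.28 and -0.46 without that library.

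Genes with a pattern like that of the summed inducible genes were sought among the 14841 tested genes that were not members and whose names do not begin with hsp. The 10 most similar over 24 libraries had r from 0.95 to 0.96, and 193 genes had r above 0.9. They were lec-8, ZK6.11, dnj-13, F26A1.8, slc-36.2, unc-23, F21D5.3, dhs-21, ZK822.5 and acs-1. Of these, dnj-13 and unc-23 are chaperone genes of the constitutive list above. Without unc-1(vlt10) replicate 4, 6 of the 10 stayed among the 10 most similar. The first, lec-8, encodes a galectin and had mean levels of 45.2 CPM in unc-1(vlt10), 73.9 in double mutants, 86.6 in nhr-1(vlt16) and 96.5 in 40Q. dnj-13, a J-domain partner of HSP70 proteins, had 230 CPM in unc-1(vlt10), 284 in double mutants, 306 in nhr-1(vlt16) and 339 in 40Q. Both follow the order of genotypes of the inducible genes. They were picked for their similarity to that sum over the same libraries, so the shared order is not a separate result. With the genotype means taken out, the most similar genes were pcbd-1 (r = 0.74), Y54G2A.48, Y59E9AL.3, Y47G6A.36, ssp-11, hrg-1, ptr-6, K11C4.2, dod-3 and slc-36.2 (r = 0.67), over the same 24 libraries, and slc-36.2 was in both lists. This second list rests on unc-1(vlt10) replicate 4: without it 0 of the 10 stayed among the most similar, and their r ranged between 0.38 and 0.77.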

How the data were processed

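RNA of whole animals was sequenced in 24 libraries, 6 for each of 4 genotypes, grouped by the genotypes in their labels. The authors selected polyadenylated RNA, aligned reads to WBcel235 with HISAT2 2.0.5 and counted them per gene with HTSeq 0.6.1. The deposited counts are whole numbers without normalization, and the FPKM values were computed by the authors per unit of length and of library size. How reads shared between near-identical copies were treated, and the strand setting, are not given in the sources used here. The authors' tables of differential expression from DESeq2 1.24.0, with log2 fold changes and p-values, were not used.

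All 24 libraries entered 1 quasi-likelihood fit of the counts on genotype (edgeR 4.0.16 in R 4.3.3), after filterByExpr and TMM. Benjamini-Hochberg adjustment ran over 14865 genes, and a gene was called at an adjusted p below 0.05 and a fold change above 2. SEs were computed as the size of the log2 fold change over the root of F. In a second fit over 14861 genes, 4 pairs were replaced by the sums of their counts. They were hsp-16.1 with hsp-16.11, hsp-16.48 with hsp-16.49, F44E5.4 with F44E5.5, and hsp-16.2 with hsp-16.41. The last pair are divergent neighbours and were not summed as near-identical copies. Alternatives were DESeq2 1.42.0, other scaling and filters, a replicate block, only the 2 genotypes compared, limma 3.58.1 on log2(FPKM + 0.1) or log2(FPKM + 1), and each library left out in turn. Positions came from Ensembl annotation release 115, which gives hsp-16.11 and hsp-16.49 the names of their copies, so genes were matched by ID. Python 3.11.15 and matplotlib 3.10.9 were used for correlations and figures. The analysis was tested on simulated counts.

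The members, lists and tests were chosen with earlier results of these data known. The text names all members and summed pairs, the called genes of each other list, and the 10 genes of most similar log2 CPM (prior count 2) over the libraries and within genotypes; other genes named were chosen after their values were seen. The planned search for heat shock elements in promoters was not run, and no sequences are shown.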

Additional observations from a re-analysis of the deposited data

Results flagged for a closer look

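In all, 60 groups of 6 libraries (10 members, 4 summed pairs and the sum of 9 inducible genes in 4 genotypes) were checked for a library far from the others, and 5 had one, where chance gives about 1 in 20. Of the 5, 3 rest on the same library and gene. In unc-1(vlt10) replicate 4, hsp-16.48 stood at 19.6 CPM, against 0.483 to 0.854 CPM in the other unc-1(vlt10) libraries. The sum of hsp-16.48 and hsp-16.49 there was 20.3 CPM, against 1.08 to 1.43 CPM, and the sum of the 9 inducible genes 55.2 CPM, against 29.4 to 33.3 CPM. In 40Q replicate 3, hsp-16.1 stood at 2.32 CPM (51 reads), against 1.12 to 1.52 CPM in the other 40Q libraries, and the sum of hsp-16.1 and hsp-16.11 at 3.82 CPM, against 2.26 to 2.77 CPM.

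The hsp-16.48 value was 9.0 times the second highest of all 24 libraries. Among the genes tested with at least 100 reads in their highest library, 1 other had a larger such ratio, D2005.1 in unc-1(vlt10) replicate 2, at 10.5. Of the 3 genes with a ratio above 5, a limit set after the values were seen, hsp-16.48 was the 1 in unc-1(vlt10) replicate 4. The source of these reads was not tested.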

How the results depend on the processing

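In double mutants against nhr-1(vlt16), hsp-70, hsp-16.2 and hsp-16.41 had an adjusted p below 0.05 under each of the 10 other settings and with each of the 24 libraries left out, and 0 members passed the fold change limit of 2 in any. Across these, adjusted p ranged from 8.88e-10 to 0.000514 for hsp-70, 6.04e-06 to 0.00481 for hsp-16.2 and 0.000632 to 0.0370 for hsp-16.41. Without the limit on fold change the counts were 3 in double mutants against nhr-1(vlt16), beside 19% of all genes, and 3 in nhr-1(vlt16) against 40Q, below the 42.5% of all genes. They were 6 in double mutants against 40Q, beside 32.2%, and 9 in double mutants against unc-1(vlt10), beside 43.3%. For the summed pairs the count was taken only in double mutants against nhr-1(vlt16), where it was 1, hsp-16.2 with hsp-16.41. On log2(FPKM + 1), 5 members were called in unc-1(vlt10) against 40Q, beside 2.03% of all genes, and 2 in double mutants against unc-1(vlt10), beside 2.42%, and a pseudocount of 1 lessens the fold changes of genes with low FPKM. With each library left out, the count was 8 to 9 in unc-1(vlt10) against 40Q, beside 5.75 to 6.47% of all genes, and 3 to 6 in double mutants against unc-1(vlt10), beside 5.95 to 6.40%.

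The direction changed for 2 genes. For hsp-16.48 in unc-1(vlt10) against 40Q the log2 fold change was -0.23 on log2(FPKM + 0.1), with or without a filter on low FPKM, -0.034 on log2(FPKM + 1), and between -1.19 and 1.64 with each library left out. Between double mutants and unc-1(vlt10) hsp-16.48 ranged between -2.17 and 0.66 with each library left out. The values of -1.19 and 0.66 came from leaving out unc-1(vlt10) replicate 4. For hsp-16.49 in nhr-1(vlt16) against 40Q the value was 0.015 on log2(FPKM + 0.1), with or without the filter, 0.0089 on log2(FPKM + 1), and between -0.19 and 0.054 with each library left out, and the cause was not tested.

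Samples of different genotypes with the same replicate number did not deviate together: 3 of 36 such pairs had a correlation above 0.1 (median -0.015). Replicate numbers do not cover the split between A and R libraries. With a replicate block the same 3 members passed in double mutants against nhr-1(vlt16), the called counts were 0 there, 8 in unc-1(vlt10) against 40Q and 3 in double mutants against unc-1(vlt10), where hsp-16.48 was lost at -1.07. DESeq2 gave no adjusted p for hsp-16.48. With a prior count of 0.5, all 10 genes of each list of similar patterns were kept. The genes with few reads had the largest SEs: in double mutants against nhr-1(vlt16) they were 0.202 to 0.25 for hsp-16.1, hsp-16.11 and hsp-16.49, and 0.238 for hsp-16.48 without unc-1(vlt10) replicate 4, against 0.0654 for hsp-70.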
